A study of Mus musculus with 16 samples.

Results

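The 10 immediate early genes Fos, Fosb, Jun, Junb, Egr1, Egr2, Zfp36, Nr4a1, Ier2 and Atf3 were followed in bone and brain of Ali35 and wild-type mice. Members were taken by gene symbol, each was found on 1 probe, and together they made up 10 of the 16593 genes named on the arrays. RNA from each mouse had been hybridised as biotin-labelled cRNA to a one-colour Illumina bead array. The 16 arrays formed 4 groups of 4 mice: wild-type bone and Ali35 bone from mice aged 120 days, and wild-type brain and Ali35 brain from mice aged 3 days. All mice were of the strain C3H/HeJ, and Ali35 is a mutant line of that strain with a mutation in Shc2, an adaptor protein gene of receptor tyrosine kinase signalling. The labels gave neither the zygosity of the mutants nor the sex of any mouse. Tissue and age changed together, so a difference between bone and brain cannot be told apart from one between adult and newborn mice.

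Immediate early genes are switched on within minutes of a stimulus, before any new protein has to be made. Kinase cascades, among them the Ras-ERK cascade that Shc adaptors feed, activate serum response factor with its Elk partners and the factor Creb at their promoters. Most of the products are themselves transcription factors and short-lived, and transcript levels fall again soon after the stimulus ends. Handling, stress and the removal of a tissue are known to induce these genes in many cell types, neurons among them.

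Values are the deposited normalized intensities, in arbitrary units with background subtracted. A value below 16 was treated as not above background and set to 16 before log2 values were taken. Testing in a tissue required 16 or more on 4 or more of its 8 arrays. Calls were made where the p of limma, adjusted by Benjamini-Hochberg over all probes tested in that tissue, fell under 0.05. Errors are SD over 4 mice for intensities and the moderated standard error (SE) of limma for log2 changes. After this filter 7 members could be tested in bone (Zfp36, Fos, Jun, Junb, Atf3, Egr1 and Egr2) and 5 in brain (Fos, Jun, Junb, Egr1 and Egr2). Arrays of a group correlated across probes with r from 0.977 to 0.991 in bone and from 0.983 to 0.992 in brain. In bone, Ali35 replicate 1 stood apart in sex-linked transcripts: its 2 Xist probes read 221 and 167, the remaining bone arrays no more than 11.7 and 7.17, and its Y-linked Eif2s3y read -2.50 against 410 to 686. The bone arrays carried RNA of several cell types. All 6 osteoblast markers examined reached 16, but so did all 6 skeletal muscle and all 8 neutrophil markers. In brain, the neuron markers Snap25 and Tubb3 lay below 16 on all arrays, while the other 4 (Syt1, Stmn2, Rbfox3 and Dcx) did not.

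Zfp36 was the only 1 of the 7 testable members called in bone, where it was higher in Ali35. It encodes tristetraprolin, an RNA-binding zinc finger protein that binds AU-rich elements and speeds the decay of cytokine transcripts such as that of tumour necrosis factor. In wild-type bone the Zfp36 probe read 411, 515, 583 and 411 in replicates 1 to 4, and in Ali35 bone 960, 845, 842 and 948. Every Ali35 mouse thus lay above every wild-type mouse, with a wide gap between the groups. The mean rose from 480 ± 84.3 to 899 ± 63.9 (SD, 4 mice each), or 1.89-fold. On the log2 scale the change was 0.92 ± 0.14 (SE, 95% interval 0.62 to 1.22, limma, adjusted p = 0.00243). Of all 12223 probes tested in bone, 12.7% were called higher in Ali35, 24.6% were called in either direction, and the groups did not overlap for 28.7%. With 7 members, a count of 1 called, in the higher direction, is too small to be told apart from these shares. By an unadjusted p under 0.05 the count was also 1, where 38.3% of all probes passed. Leaving out Ali35 replicate 1, which carried Xist, gave a log2 change of 0.89 (adjusted p = 0.00716).

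**Figure D1:**
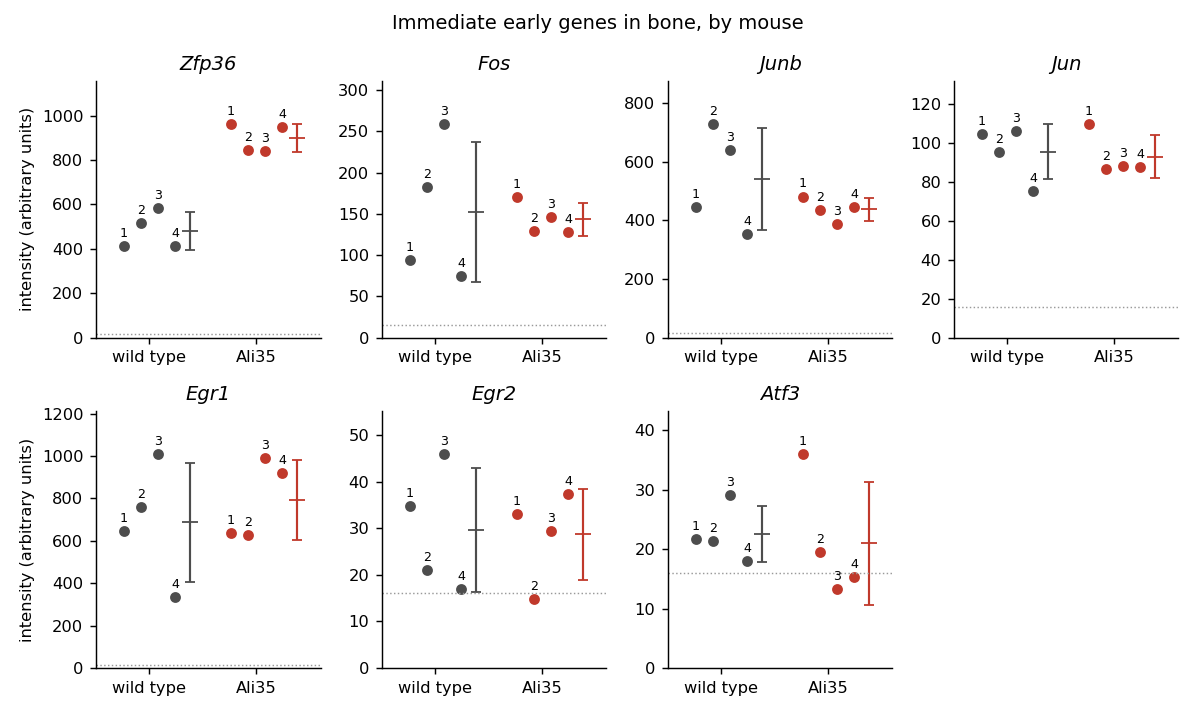
Intensity of the 7 testable immediate early genes in bone, in arbitrary units on linear axes that start at 0; each point is 1 mouse labelled with its replicate number, the horizontal mark and whiskers beside the points are the mean and SD of 4 mice, and the dotted line is the background limit of 16. The 4 Ali35 mice lie at 842 to 960 for Zfp36, above the wild-type range of 411 to 583, while the groups overlap for the other 6 genes.

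Markers of several cell types were read from the same bone arrays. Of all bone probes tested, 24.6% were called, 12.7% higher and 11.9% lower in Ali35, and the groups did not overlap for 28.7%. Of 6 osteoblast markers, 4 were higher in Ali35 bone and 2 were not called, with a median log2 change of 0.90 and summed intensities of 27420 to 41821 in wild-type and 32992 to 57378 in Ali35 bone, which overlap. Col1a1, a collagen gene of bone matrix, rose by 1.91 ± 0.23 on the log2 scale (limma, adjusted p = 0.001) and Sp7, which encodes the osteoblast factor osterix, by 1.06 ± 0.11 (adjusted p = 0.000645). The 2 not called were Bglap (-0.22), whose mean was 15130 in wild-type and 13229 in Ali35 bone, and Ibsp (0.13). Of 3 testable osteocyte markers 0 were called, and their sums, 411 to 685 and 463 to 700, overlapped. Of 4 testable osteoclast markers, 2 were higher (Mmp9 by 0.76, Oscar by 0.53), and of 6 skeletal muscle markers 2 were higher (Myh4 by 1.05, Atp2a1 by 0.43). The summed intensities were 7617 to 8076 and 8346 to 10112 for the osteoclast list, which do not overlap, and 81079 to 89271 and 76526 to 112131 for the muscle list, which do. Within the osteoclast list the mean of Mmp9 rose from 2506 to 4223, while that of Ctsk was 5174 in wild-type and 5162 in Ali35 bone. Ctsk and Acp5 were not called (log2 -0.01 and 0.05). Of 3 testable fat cell markers 1 was lower (Lep, -2.10), and of 4 testable endothelial markers 1 was higher (Cdh5, 0.72). The counts of the osteoclast, muscle, fat cell and endothelial lists are too small to be read as a result about the cell type. Calcr of the osteoclast, Fabp4 of the fat cell and Kdr of the endothelial list lay below 16 on all bone arrays.

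Among blood cells, 2 of 8 neutrophil markers were called, close to the 24.6% of all bone probes: Mpo, the myeloperoxidase of granules, was higher (0.56 ± 0.11) and Mmp8, the neutrophil collagenase, lower (-0.45 ± 0.14). Their summed intensity ranged from 117034 to 127721 in wild-type bone and from 129381 to 147795 in Ali35 bone, without overlap, and none of the 8 lay below 16 on all arrays. Of 5 testable B cell markers 1 was called (Cd79b, lower), with a median log2 change of -0.37, and Pax5 lay below 16 on all arrays. The B cell sums, 3857 to 4453 in wild-type and 2405 to 3473 in Ali35 bone, did not overlap. None of 5 erythroid and 5 macrophage markers was called, and their sums overlapped, at 69947 to 77755 against 72007 to 87951 and at 3718 to 4020 against 3118 to 3767. The part of any of these cell types in the Zfp36 difference was not tested. In whole tissue, fewer cells of a type and less RNA per cell cannot be told apart.

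In brain the Zfp36 probe was at or near background. It read 11.1, 14.0, 13.0 and 12.8 in wild-type pups and 15.5, 24.8, 11.3 and 20.3 in Ali35 pups. It reached 16 on 2 of the 8 arrays, both of Ali35 mice (replicates 2 and 4), so it was not tested and no fold is given. With no filter on dim probes, and most brain values set to the floor, its log2 change in bone minus that in brain was 0.67 (limma, adjusted p = 0.0594).

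The proximal promoters of Zfp36, the called member, and of Fos and Junb, which were not called, are shown with the motifs of factors that act on immediate early genes. Each is the 250 bases before the RefSeq transcript start in the assembly GRCm38.p6, written 5′ to 3′ in the direction of transcription. Capitals mark matches to a CRE half-site (TGACG, bound by Creb and Atf proteins), an EGR site (GCGNGGGCG), a TATA box (TATAAA, sense strand only) or a CArG box (the site of serum response factor), the others searched on both strands.
Zfp36, chr7:28379229-28379478, minus strand: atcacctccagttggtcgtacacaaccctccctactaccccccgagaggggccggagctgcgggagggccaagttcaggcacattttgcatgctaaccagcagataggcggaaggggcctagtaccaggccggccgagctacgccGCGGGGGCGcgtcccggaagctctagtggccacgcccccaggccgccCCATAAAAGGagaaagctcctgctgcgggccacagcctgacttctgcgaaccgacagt
Fos, chr12:85473640-85473889, plus strand: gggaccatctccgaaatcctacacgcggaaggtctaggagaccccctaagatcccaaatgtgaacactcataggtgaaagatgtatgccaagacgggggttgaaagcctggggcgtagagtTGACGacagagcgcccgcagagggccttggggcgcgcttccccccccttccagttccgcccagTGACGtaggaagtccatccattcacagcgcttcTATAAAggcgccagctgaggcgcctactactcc
Junb, chr8:84978749-84978998, minus strand: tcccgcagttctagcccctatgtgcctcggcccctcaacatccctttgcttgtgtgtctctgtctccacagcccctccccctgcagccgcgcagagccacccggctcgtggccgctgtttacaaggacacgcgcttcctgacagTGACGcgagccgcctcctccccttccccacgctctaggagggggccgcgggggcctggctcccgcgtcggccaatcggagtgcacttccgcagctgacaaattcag
The Zfp36 window held an EGR site 105 bases and a CArG box 58 bases before the start. The Fos window held CRE half-sites 129 and 66 bases before the start and a TATA box 33 bases before it, and the Junb window held a CRE half-site 106 bases before the start. RefSeq windows were matched for 8 of the 10 members (12 windows, 5 of them at alternative and partly overlapping starts of Egr2), all but Egr1 and Ier2. A CRE half-site stood in 8 of these 12 windows (6 genes) and in 17.8% of all 32851 windows of the same length. An EGR site stood in 3 of the 12 (Fosb, Nr4a1 and Zfp36) and in 4.70% of all windows. A CArG box stood in 5 of the 12 (Egr2 and Zfp36) and in 1.47% of all windows. The full CRE (TGACGTCA) and the AP-1 site (TGANTCA) stood in 0 of the 12 windows and in 1.55% and 6.75% of all windows. These matches describe letters in a window and are no evidence of binding in these tissues. Sites more than 250 bases before the start, or after it, were not searched. A window without a match, such as that of Fos for the CArG box, therefore does not show that the gene lacks the site.

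Fos, the partner that forms the transcription factor AP-1 with Jun proteins, was not called in bone. It read 93.6, 182, 259 and 75.3 in wild-type replicates 1 to 4 and 171, 129, 146 and 129 in Ali35 replicates 1 to 4. The Ali35 mice all lay inside the wild-type range, whose highest value was 3.44 times its lowest, against 1.33 times in Ali35. The log2 change was 0.08 ± 0.34 (95% interval -0.69 to 0.85, adjusted p = 0.891), so that changes of up to 1.80-fold upward remain within the interval. Fosb, a close relative of Fos, read -2.75 to 18.4 in bone and passed 16 on 1 of 8 arrays, that of Ali35 replicate 2.

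Junb, a Jun family protein that pairs with Fos proteins, had a similar order among wild-type mice. It read 444, 729, 639 and 353 in wild-type bone and 481, 436, 387 and 444 in Ali35 bone, with the Ali35 values again inside the wild-type range. Its log2 change was -0.26 ± 0.21 (95% interval -0.73 to 0.22, adjusted p = 0.405). Jun, the founding member of that family, varied less between mice. It read 104, 95.5, 106 and 75.5 in wild-type bone and 110, 86.8, 88.2 and 87.5 in Ali35 bone, and had a log2 change of -0.03 ± 0.14 (95% interval -0.34 to 0.28, adjusted p = 0.892). Atf3, a stress-induced repressor of the same leucine zipper class, was dim: it reached 16 on all 4 wild-type bone arrays, with at most 29.1, and read 13.3 to 36.0 in Ali35 bone, where 2 of 4 arrays lay below 16. Its highest value was that of Ali35 replicate 1, and its log2 change was -0.11 ± 0.26 (adjusted p = 0.788), with the Ali35 side partly set by the floor.

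Egr1, a zinc finger transcription factor induced by growth factor and mechanical signals, read 645, 758, 1009 and 333 in wild-type bone and 634, 627, 990 and 919 in Ali35 bone. The groups overlapped, since wild-type replicate 3 lay above all Ali35 mice and wild-type replicate 4 below all of them. The log2 change was 0.29 ± 0.31 (95% interval -0.41 to 0.98, adjusted p = 0.528). Without wild-type replicate 4 it was -0.026. Egr2, a related factor with a role in myelinating and skeletal cells, read 34.8, 21.0, 45.9 and 17.0 in wild-type bone and 33.2, 14.8, 29.4 and 37.5 in Ali35 bone. These values were close to background and overlapped, with a log2 change of 0.01 ± 0.35 (95% interval -0.76 to 0.78, adjusted p = 0.989). The probes of Nr4a1, an orphan nuclear receptor, and Ier2, a small nuclear protein, lay below 16 on all 16 arrays, with at most 0.790 and 6.55. Neither probe measured a level in either tissue.

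Within wild-type bone the members lay on the same side of their means in 2 of the 4 mice. On the array of wild-type replicate 3 all 7 testable members lay above their wild-type mean, by 0.50 on the log2 scale on average, and on that of replicate 4 all 7 lay below it, by 0.55 on average. The deviation of replicate 3 ranged from 0.17 for Jun to 0.94 for Fos, and that of replicate 4 from -0.93 for Egr1 to -0.21 for Zfp36. The Ali35 mice were closer together: their mean deviations ran from -0.21 in replicate 2, where 6 of 7 members were below the mean, to 0.22 in replicate 1, where 6 of 7 were above it. The deviations of a group sum to 0, so its 4 mice are not independent in this respect, and whether the spread differed between genotypes was not tested. The residual SD was 0.60 for Fos and Egr2 and 0.54 for Egr1, larger than that of 98.6%, 98.6% and 97.6% of the probes tested in bone, while those of Jun (0.20) and Zfp36 (0.19) exceeded 48.8% and 45.7%. Zfp36 kept its call when wild-type replicates 3 and 4 were both left out, an alternative chosen after seeing the data (log2 0.96, adjusted p = 0.0147).

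**Figure D2:**
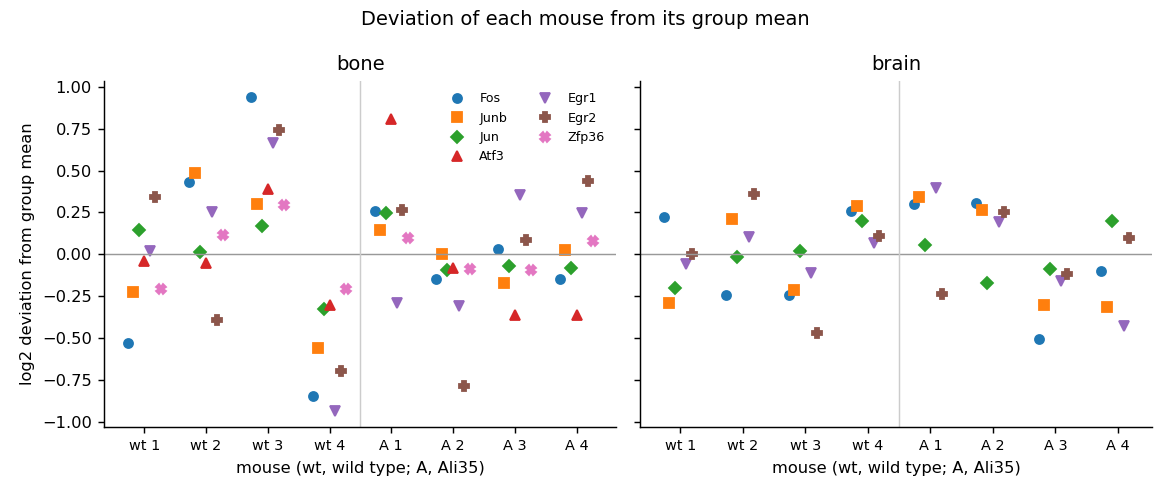
Deviation of each mouse from its group mean on the log2 scale (after the floor of 16) for each testable immediate early gene, with bone on the left and brain on the right; each symbol is 1 gene in 1 mouse. In bone all 7 genes lie above 0 in wild-type replicate 3 and below 0 in wild-type replicate 4, whereas the brain values spread less.

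The genes whose deviations over the 8 bone arrays followed the average of the members most closely, among 11513 other named probes, were Mast2 (Pearson r = 0.99), Slco2a1 (r = 0.98), Dusp1 (r = 0.97), Zcchc14 (r = 0.96) and Ccnd1 (r = 0.96). They are the highest of many values over 8 arrays with shared group means and are given as a description. Dusp1 encodes a phosphatase of MAP kinases and is itself an immediate early gene. It read 921 to 1745 in bone and was not called between genotypes (-0.22, adjusted p = 0.393). Ccnd1, the cyclin D1 gene, was not called either (-0.26, adjusted p = 0.155). Mast2, a kinase gene (0.84, adjusted p = 0.00307), Slco2a1, a prostaglandin transporter gene (1.45, adjusted p = 0.00258), and Zcchc14 (0.49, adjusted p = 0.0114) were higher in Ali35 bone. Their r with the members was taken over the deviations of both genotypes together and not within each genotype. In brain the 5 closest probes were those of Gng13 (r = 0.98), Haghl (r = 0.96), Fancd2 (r = 0.96), 1110017D15Rik (r = 0.95) and Dennd10 (r = 0.95), of which none was called between genotypes (adjusted p from 0.689 to 0.983).

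In brain, 0 of the 5 testable members were called by limma, where 3.64% of 10922 probes were called (1.9% higher and 1.74% lower in Ali35). At an unadjusted p under 0.05 there was 1 (Junb), a level that 23.6% of all brain probes reached. Junb read 24.7, 34.9, 26.0 and 36.9 in wild-type pups and 51.8, 49.1, 33.1 and 32.9 in Ali35 pups. Replicates 1 and 2 of Ali35 lay above all wild-type pups and the other two lay among them. Its log2 change was 0.43 ± 0.19 (95% interval 0.01 to 0.86, unadjusted p = 0.0453, adjusted p = 0.203).

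Egr1 showed the same pair of pups on top. It read 323, 361, 311 and 351 in wild-type brain and 514, 447, 350 and 290 in Ali35 brain, and its log2 change was 0.22 ± 0.16 (95% interval -0.15 to 0.58, adjusted p = 0.457). Fos read 23.3 to 33.0 in wild-type and 20.7 to 36.3 in Ali35 brain, again highest in Ali35 replicates 1 and 2, with a log2 change of 0.09 ± 0.20 (adjusted p = 0.810). Jun read 117, 133, 136 and 155 in wild-type and 138, 119, 126 and 153 in Ali35 brain, which overlapped almost fully (log2 -0.01 ± 0.12, 95% interval -0.27 to 0.24, adjusted p = 0.957). Egr2 was dim and overlapped, with at most 28.4 in wild-type and 23.0 to 32.3 in Ali35 brain, and wild-type replicate 3 was just under the floor (log2 0.29 ± 0.17, adjusted p = 0.341). Fosb and Atf3 lay below 16 on all brain arrays, at most at 7.41 and 4.99.

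**Figure D3:**
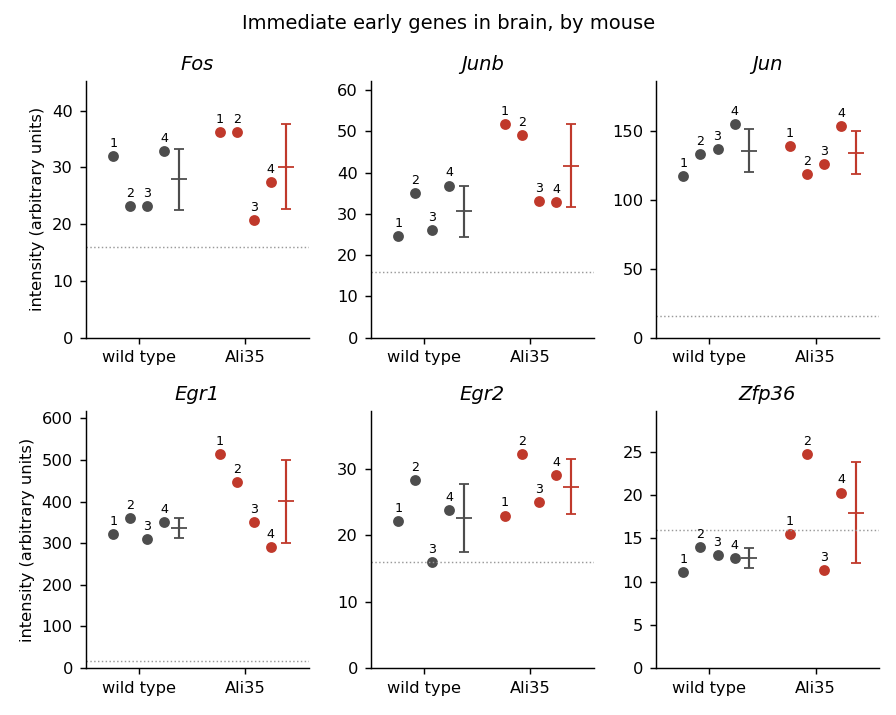
Intensity of 6 immediate early genes in brain, in arbitrary units on linear axes that start at 0; each point is 1 pup labelled with its replicate number, the horizontal mark and whiskers are the mean and SD of 4 pups, and the dotted line is the background limit of 16. The groups overlap in all 6 panels, and 6 of the 8 Zfp36 values lie below the dotted line.

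Levels in bone and brain were set side by side after quantile normalization over all 16 arrays, because the deposited values had been normalized within each tissue. These are descriptions of a level on 1 probe across tissues of different age. Zfp36 read 275 to 644 in bone and at most 33.5 in brain. Junb likewise read 235 to 490 in bone and 33.3 to 76.1 in brain, and Fos 53.0 to 173 and 27.6 to 51.4. Jun ran the other way, at 53.2 to 74.7 in bone and 176 to 232 in brain. The tissues overlapped for Egr1, at 222 to 670 and 432 to 780.

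The change in bone was compared with the change in brain for the 5 members tested in both, and 0 were called by limma, where 24.4% of 9225 probes were called. At an unadjusted p under 0.05 there was 1 member, Junb, where 37.7% of all probes passed. Its change in bone minus that in brain was -0.69 ± 0.30 on the log2 scale (95% interval -1.33 to -0.05, unadjusted p = 0.0352, adjusted p = 0.103). Without wild-type bone replicate 4, the lowest Junb array in bone, this difference was -0.88 and was called (adjusted p = 0.0368). Over all fits with 1 array left out it ran from -0.88 to -0.53, with adjusted p up to 0.199, and was called in no other. For Fos, Jun, Egr1 and Egr2 the differences were -0.02 ± 0.42, -0.02 ± 0.18, 0.07 ± 0.37 and -0.28 ± 0.41, with adjusted p from 0.648 to 0.981.

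**Figure D4:**
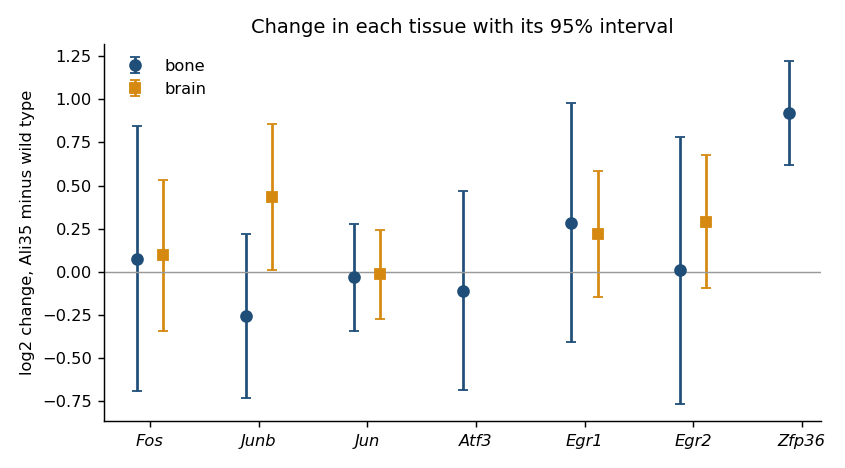
Log2 change (Ali35 minus wild type, after the floor of 16) of each testable immediate early gene in bone (circles) and brain (squares); bars are 95% intervals from limma. The interval of Zfp36 in bone runs from 0.62 to 1.22, and the other intervals cross 0 except that of Junb in brain, which starts at 0.01 and was not called after adjustment.

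A wider list of 55 further rapidly induced genes was read from the same fits. In bone, 33 could be tested, 3 were higher, 3 were lower and 27 were not called, with a median log2 change of -0.21 against -0.04 over all probes tested. The share called, 6 of 33, is not far from the 24.6% of all probes, and the difference was not tested. Klf4, a zinc finger factor of myeloid and epithelial cells, rose from 104 ± 4.47 to 165 ± 16.8 (log2 0.65 ± 0.10, adjusted p = 0.00346). A second Klf4 probe rose by 0.49 and the remaining one, at 0.22, was not called. Zfp36l1, which encodes a close relative of tristetraprolin with the same kind of RNA-binding fingers, rose 1.42-fold from 2332 ± 73.5 to 3329 ± 249 (log2 0.51 ± 0.10, adjusted p = 0.00662), and its second probe rose by 0.46. Plk3, a stress-activated kinase gene, rose by 0.55 ± 0.17.

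The 3 lower genes of that list were Dusp2, a nuclear MAP kinase phosphatase gene (-0.58 ± 0.15), Nfkbia, which encodes the inhibitor of NF-kappaB (-0.53 ± 0.15), and Batf, a partner of Jun proteins in lymphocytes (-0.54 ± 0.17). A second Dusp2 probe, at -0.53, was not called (adjusted p = 0.0691). Ccn1, a matricellular protein gene, was not called on its brightest probe, but 1 of its other 2 probes was lower (-0.52, adjusted p = 0.0127). The calls of Plk3, Nfkbia, Batf and Dusp2 were lost without at least 1 array, in 6, 5, 6 and 1 of 8 cases, with adjusted p up to 0.107, 0.0743, 0.113 and 0.0517. The call of Dusp2 was lost without wild-type replicate 4. The calls of Plk3 and Batf were also lost without Ali35 replicate 1, which carried Xist. Those of Klf4 and Zfp36l1 were kept in all 8.

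Of 12 known target transcripts of tristetraprolin, 6 could be tested in bone and 0 were called, with a median of -0.08; by an unadjusted p under 0.05 there were 2. Over all bone probes these shares were 24.6% and 38.3%. Il1b, encoding interleukin 1 beta, had -0.46 (adjusted p = 0.0870), Ccl4, a chemokine gene, had 0.41 (adjusted p = 0.0915), and Tnf, encoding tumour necrosis factor, had -0.53 (adjusted p = 0.157).

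The kinases and factors that drive immediate early genes formed a further list of 36, of which 20 could be tested in bone, with 2 higher and 2 lower on the brightest probe of each gene and a median of 0.05. The share called, 4 of 20, is near the 24.6% of all bone probes. Ep300, a histone acetyltransferase that serves Creb and other factors as coactivator, rose from 313 ± 33.0 to 645 ± 111 (2.05-fold, log2 1.03 ± 0.14, adjusted p = 0.00175). Supt5, a subunit of the elongation factor DSIF that holds and then releases paused polymerase, rose by 0.47 ± 0.10, and by 0.49 on its second probe. Rps6ka5, the kinase gene of Msk1 (-0.44 ± 0.11), and Rps6ka3, that of Rsk2 (-0.33 ± 0.11), were lower. Leaving out each of the 8 arrays in turn lost these calls 2 and 7 times, Rps6ka5 without wild-type replicates 1 and 4, with adjusted p up to 0.0687 and 0.130. Nab1, which encodes a corepressor of Egr proteins, was not called on its brightest probe (-0.38, adjusted p = 0.0633), but 1 of its 3 other probes was lower (-0.87, adjusted p = 0.00174). Srf itself, which encodes serum response factor, was not called (0.12, adjusted p = 0.362).

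In brain, 1 of 27 testable genes of the wider list and 2 of 17 testable upstream genes were called, where 3.64% of all brain probes were. Plk2, a kinase gene induced by neuronal activity, fell by 0.48 ± 0.11 (adjusted p = 0.0442). Among the upstream genes, Ep300 rose by 0.59 ± 0.12 (adjusted p = 0.0330) and Supt5 fell by 0.42 ± 0.10 (adjusted p = 0.0485), while a second Supt5 probe, at -0.24, was not called. Leaving out each array in turn lost the calls of Plk2, Ep300 and Supt5 in 8, 7 and 8 of 8 fits, with adjusted p up to 0.111, 0.0961 and 0.123. For Ep300 a difference in change between the tissues did not pass the test (bone minus brain 0.45 ± 0.18, adjusted p = 0.0836). Of the brain cell type markers, Cnp (oligodendrocyte, -0.54), Alas2 (erythroid, -1.19) and Gfap (astrocyte and radial glia, -0.58) were called lower in Ali35. Each was the only call in its list, and no neuron, microglia or endothelial marker was called. The oligodendrocyte sums, 1344 to 1848 in wild-type and 795 to 1325 in Ali35 brain, did not overlap. Nor did those of microglia, at 270 to 291 against 217 to 266. The astrocyte and radial glia sums, 4865 to 5498 and 5624 to 6600, did not overlap either, but were higher in Ali35, unlike Gfap. Slc1a3 of that list had 0.26 (limma, adjusted p = 0.129). The neuron, erythroid and endothelial sums overlapped. Over all brain probes tested the groups did not overlap for 15.7%. The part of these cell types in the brain changes was not tested.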

How the data were processed

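Expression was measured on 16 Illumina one-colour arrays. Per the submitters' processing notes GenomeStudio 2011.1 was used. The deposited intensity values are linear; the values show background subtraction, since some lie below 0, and normalization within each tissue, since quartiles of its 8 arrays are nearly equal. The method of that normalization is not given in the sources used here. Another table held 32 columns under numbers that match no label, and these were not used. Of 25697 probes, 23978 carried 1 gene symbol from the platform annotation, 1719 none and 0 several; 23962 Entrez identifiers were found in RefSeq of GRCm38.p6.

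Intensities below 16 were set to 16, log2 values were fitted per tissue with limma 3.58.1 (R 4.3.3; lmFit, eBayes), and p-values were adjusted over all kept probes; tests were two-sided. The difference between tissues was an interaction term over 16 arrays. The fits were tested on simulated data. Genes named beyond the members are called members of 3 lists (at most 8 per list and tissue) and the 5 most alike in pattern; other uncalled list genes (Il1b, Ccl4, Tnf, Srf, Nab1 and Ccn1) and cell type markers were named after their values were seen. The brightest kept probe stood for a gene of a list. The members, the lists and the floor were chosen with earlier results of these data known. For arrays, the number of mice limits the precision. Alternatives covered the floor, filter, scaling, variance model, replicate block and leaving out each array. Figures used matplotlib 3.10.9.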

Additional observations from a re-analysis of the deposited data

Results flagged for a closer look

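Among 68 groups of 4 arrays examined for a single distant value, 3 had one, where chance gives about 1 in 20. Jun read 110 in Ali35 bone replicate 1 and 86.8 to 88.2 in the other Ali35 bone arrays, a gap of 0.932 of the group's range on the log2 scale. Rps6ka3 read 69.8 in Ali35 bone replicate 3 against 65.9 to 66.4 (gap 0.873), and Plk2 read 277 in wild-type brain replicate 3 against 235 to 239 (gap 0.888).

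No member of the immediate early genes tested in both tissues differed between them in its change by limma (0 of 5 at an adjusted p under 0.05, 1 at an unadjusted p under 0.05), where 24.4% of all probes did. The test was read for the 9 genes of the wider lists that had been called in bone or brain and could be tested in both, a choice made by their calls, and 6 of these differed. The change in bone minus that in brain, on the log2 scale, was 0.57 ± 0.13 for Zfp36l1 (adjusted p = 0.00617), 0.65 ± 0.20 for Plk3 (adjusted p = 0.0267), -0.75 ± 0.21 for Dusp2 (adjusted p = 0.0177), -0.85 ± 0.21 for Nfkbia (adjusted p = 0.00872) and -0.69 ± 0.13 for Rps6ka3 (adjusted p = 0.00174). Supt5 gave 0.72 ± 0.16 on the probe that was brighter in bone (adjusted p = 0.00416) and 0.91 ± 0.15 on the one brighter in brain (adjusted p = 0.000666). With no filter on dim probes the differences of Dusp2 and Plk3 were not called (adjusted p = 0.0593 and 0.0758), and that of Plk3 was also lost without any one of wild-type bone replicates 1 and 4, Ali35 bone replicate 4 and Ali35 brain replicate 3 (adjusted p from 0.0520 to 0.0564).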

How the results depend on the processing

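Zfp36 in bone kept its direction and its call under all 17 alternatives, with log2 changes from 0.85 to 1.02 and adjusted p of at most 0.020, and 1 member was called in bone under each of them. Under all alternatives 0 members were called in brain, and in the difference between tissues 0, except that Junb was called without wild-type bone replicate 4 (0 to 1 member over the arrays left out). Changes near 0 turned sign: Egr2 in bone was -0.020 with a floor of 8, -0.092 with a floor of 32 and -0.014 on log2(intensity + 32), and Atf3 in bone was 0.043 with a floor of 32. Leaving out 1 array moved Fos in bone between -0.20 and 0.39, Egr1 between -0.026 and 0.51, Egr2 between -0.22 and 0.27, Jun between -0.14 and 0.026, Junb between -0.44 and -0.093 and Atf3 between -0.38 and 0.021. In brain it moved Fos between -0.0063 and 0.26, Jun between -0.081 and 0.053 and Junb between 0.32 and 0.54. Egr1 in brain moved between 0.086 and 0.36 and Egr2 between 0.13 and 0.41. The difference between tissues moved between -0.30 and 0.30 for Fos, -0.13 and 0.051 for Jun and -0.88 and -0.53 for Junb. For Egr1 it moved between -0.24 and 0.29 and for Egr2 between -0.51 and -0.019.

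Over all probes, 1430 were called in bone with no filter on dim probes, 932 without wild-type replicates 3 and 4 (chosen after seeing the data), and 1634 to 2636 when 1 array was left out (1634 without wild-type replicate 4, 1759 without replicate 1). In brain the 398 calls became 248 with a floor of 8, 798 on log2(intensity + 32), 19 with no filter, 850 with a variance trend and robust fit, 206 with the replicate block, and 43 to 245 when 1 array was left out; the cause was not tested. Whether replicate numbers pair the samples could not be decided from groups of 4 arrays. Deviations of same-numbered arrays correlated at -0.12 to 0.16 in bone and 0.01 to 0.14 in brain. In bone 1 and in brain 2 of 4 wild-type arrays correlated best with their own number. With the replicate block 2335 probes were called in bone, 1 member in bone (Zfp36, adjusted p = 0.0130) and 0 members in brain. The difference between tissues had 1746 to 2250 calls when 1 array was left out. Of the wider lists, with no filter the bone calls of Dusp2, Nfkbia, Plk3, Batf, Rps6ka5 and Rps6ka3 were lost (adjusted p from 0.0548 to 0.161). With the replicate block those of Plk3, Rps6ka5 and Rps6ka3 were lost (0.0701, 0.0561 and 0.0963), with a floor of 32 those of Plk3 (0.0665) and Batf (0.0675), and on log2(intensity + 32) and with the variance trend and robust fit that of Rps6ka3 (0.0739 and 0.103). The replicate block also ended in brain those of Plk2 (0.0614), Ep300 (0.0636) and Supt5 (0.0727), as did no filter (0.173 to 0.191), and floors of 8 and 32 ended those of Plk2 (0.0540 and 0.0573) and Supt5 (0.0557 and 0.0517). Without wild-type bone replicates 3 and 4 the bone calls of the wider lists other than Klf4 and Ep300 were lost, while Zfp36 kept its call. Dim probes (Egr2, Atf3, and Zfp36 in brain) were limited by signal over background.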
